A study of Mus musculus with 12 samples.

Results

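The genes described here are the 7 members of the *Aldh1* family measured in mouse islets of Langerhans (*Aldh1b1*, *Aldh1a1*, *Aldh1a2*, *Aldh1a3*, *Aldh1a7*, *Aldh1l1* and *Aldh1l2*) together with *Aldh2*. They were chosen by name, and all 8 were found among the 18351 genes of the deposited expression table. The study deleted one of them, *Aldh1b1*, by a *lacZ* knock-in allele, *Aldh1b1*tm1lacZ, and sequenced poly(A) RNA of isolated islets from null and wild-type mice. The 12 libraries fell into 4 groups of 3: islets of *Aldh1b1*tm1lacZ null mice and of wild-type mice at 8 weeks of age (week 8, 1 mouse per library, null libraries MUT218, MUT219 and MUT229, whose values are given in that order), and islets of null mice and of wild-type mice at postnatal day 1 (P1, 3 mice pooled per library). Null mice lack the gene in every tissue from conception, not in islet cells alone. The study's methods give male mice for islet isolation, and the islets of all groups were kept in culture medium with serum for a short time before RNA was prepared. The age of the mice cannot be told apart from the pooling of animals, which was done at P1. Nor can age be told apart from the order of the serial numbers in the library titles. Every week 8 library had a lower serial number than any P1 library. Whether these numbers mark batches of preparation or sequencing was not tested.

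Aldehyde dehydrogenases oxidise aldehydes to carboxylic acids. Within this group, ALDH1A1, ALDH1A2 and ALDH1A3 convert retinaldehyde to retinoic acid, the ligand of nuclear receptors that pattern the pancreas, and ALDH1A7 is a close rodent relative of ALDH1A1. ALDH1L1 in the cytosol and ALDH1L2 in mitochondria release carbon dioxide from formyltetrahydrofolate and so drain the folate one-carbon pool, while ALDH2 and ALDH1B1 are mitochondrial enzymes that clear acetaldehyde and other aldehydes. ALDH1B1 is best known in the pancreas from embryonic progenitors and ALDH1A3 from endocrine cells.

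Between 15212080 and 29248285 reads per library were assigned to genes. Values are the normalised counts of the deposited table, in which 1 read was worth 0.671 to 1.47. Genes of beta cells (*Ins1*, *Ins2* and others) and of alpha cells were read in every library, as the islet label requires, but so were genes of acinar cells, the enzyme-secreting cells that surround islets. A list of 29 measured acinar genes took 12.6%, 23.8% and 13.7% of the reads of the week 8 null libraries, against 49.5%, 48.7% and 54.7% in week 8 wild-type libraries. At P1 it took 25.9%, 22.3% and 11.2% in null libraries, against 3.40%, 2.18% and 6.83% in wild-type libraries. The acinar share was thus lower in null islets at week 8 and higher in them at P1, with no overlap at either age. In whole islets, fewer cells of a type and less RNA per cell cannot be told apart.

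*Aldh1b1*, the deleted gene, was read first as a check of the labels. It had normalised counts of 0.671, 0 and 0 in the week 8 null libraries, against 58.9, 102 and 84.2 in week 8 wild-type libraries. At P1 it had 0, 0 and 2.79 in null libraries, against 63.5, 60.2 and 88.9 in wild-type libraries. All 12 libraries therefore matched their labelled genotype.

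In reads, the 3 week 8 null libraries held 1 read of *Aldh1b1* and the wild-type libraries 193, which scaled for library size is 0.304% of the wild-type level (95% exact interval 0.00766% to 1.71%, counting error only). At P1 the null libraries held 3 reads and the wild-type libraries 294, or 1.29% of the wild-type level (95% exact interval 0.264% to 3.80%). The fitted log2 fold changes, -6.09 ± 0.48 (SE) at week 8 and -5.50 ± 0.57 at P1, depend on the value of 1 added before taking logs and are no bound. Both passed the test used throughout, a Benjamini-Hochberg adjusted p below 0.05 over all genes from limma (adjusted p = 0.000291 at week 8 and 0.0242 at P1). The P1 call was lost without null library 1, null library 2 or wild-type library 2 (adjusted p up to 0.242), with limma-voom and with 0.1 in place of 1 added, always with null lower. In the wild-type libraries *Aldh1b1* itself was a modest transcript. It averaged 1.05 ± 0.29 reads per kilobase of transcript, scaled to the assigned reads (RPKM) at week 8 and 2.35 ± 0.45 RPKM at P1 (SD, n = 3 each). The study, from western blots and its RNA sequencing, reports the gene as not expressed in postnatal and adult islets. Which cells of the islet preparations these reads came from was not tested.

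**Figure D1:**
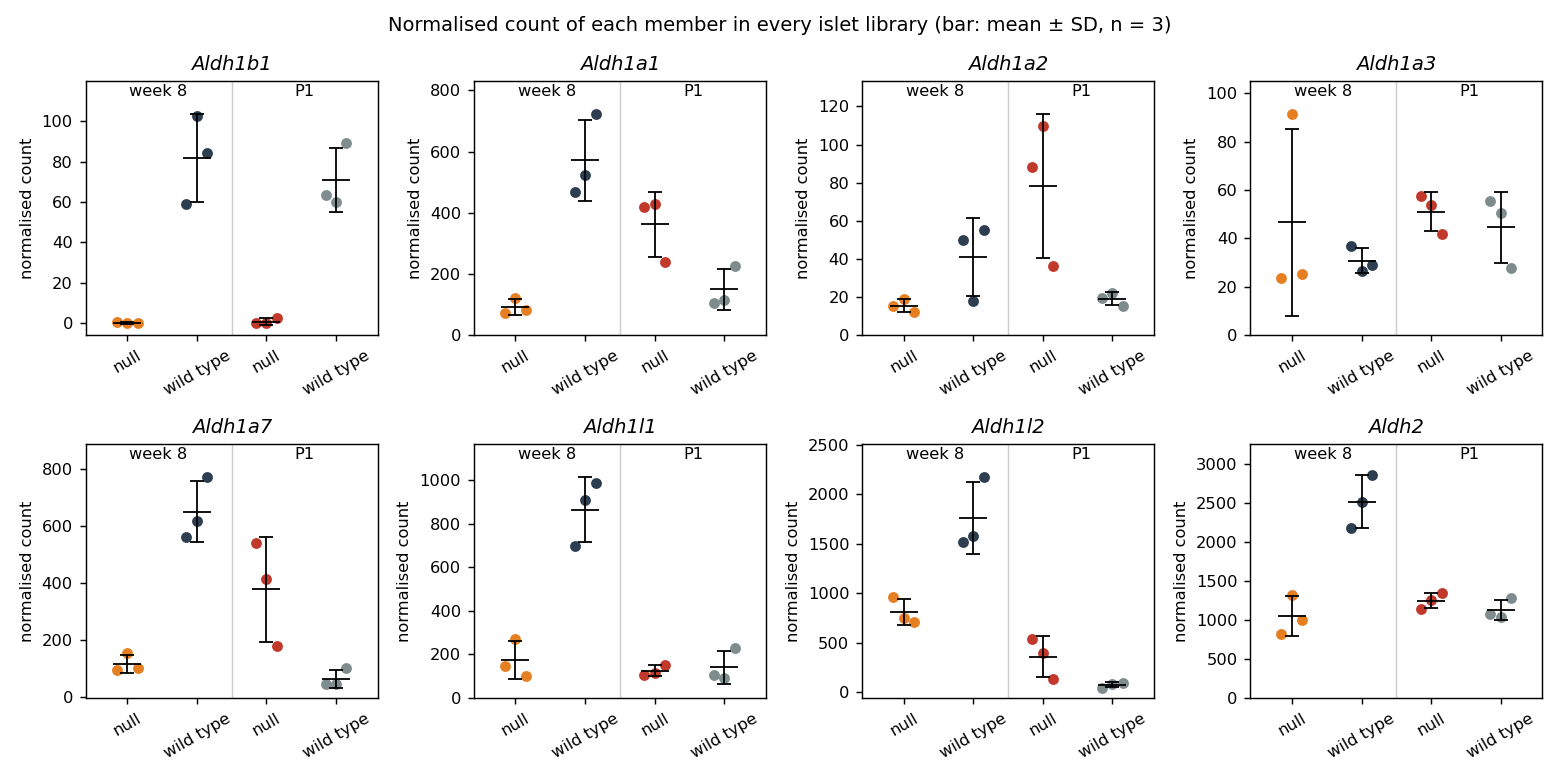
Normalised count (y axis, linear, different range in each panel) of the 8 genes in each of the 12 libraries, week 8 left of P1 and null left of wild type at each age; points are libraries and bars the mean ± SD of 3. *Aldh1b1* lies between 0 and 2.79 in the null libraries, *Aldh1a1*, *Aldh1a7*, *Aldh1l1*, *Aldh1l2* and *Aldh2* lie below the wild type in all 3 null libraries at week 8, and *Aldh1a1*, *Aldh1a2*, *Aldh1a7* and *Aldh1l2* lie above it in all 3 at P1.

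At week 8, the question was whether loss of *Aldh1b1* was accompanied by changes in its relatives. *Aldh1a1*, *Aldh1a7*, *Aldh1l1*, *Aldh1l2* and *Aldh2* were lower in null islets, so that 5 of the 7 relatives were called lower and 0 higher. With *Aldh1b1*, whose fall the knockout fixes, 6 of the 8 genes were called. Of all 18126 genes tested at this age, 28.1% were called and 15.8% were called lower. The median log2 fold change of the 7 relatives was -1.28, against 0.02 over all genes. *Aldh1a2* and *Aldh1a3* did not pass the test. The same 6 genes were called by edgeR (28.3% of all genes called) and by limma-voom (27.6%) on the recovered reads, and DESeq2 called 7, adding *Aldh1a2* (30.1%).

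Among the retinoic acid enzymes and their relative, *Aldh1a1* had normalised counts of 71.8, 123 and 83.2 in week 8 null libraries, against 470, 523 and 722 in wild-type libraries. The highest null library lay well below the lowest wild-type library, and the log2 fold change was -2.63 ± 0.24 (adjusted p = 0.000308). *Aldh1a7* had 96.7, 154 and 103 in null libraries, against 563, 620 and 772 in wild-type libraries. Its groups were as far apart, with a log2 fold change of -2.48 ± 0.21 (adjusted p = 0.000295). *Aldh1a2*, the main retinoic acid enzyme of mesenchyme in the embryo, had 15.4, 19.0 and 12.3 in null libraries, against 50.1, 17.8 and 55.2 in wild-type libraries. Wild-type library 2 lay within the null range, and the log2 fold change of -1.21 ± 0.46 did not pass (adjusted p = 0.0786), whereas without that library it was -1.71 and passed (adjusted p = 0.00558). *Aldh1a3* had 23.5, 91.3 and 25.3 in null libraries, against 36.8, 26.7 and 29.0 in wild-type libraries. Null library MUT219 alone lay above the wild-type range. The log2 fold change of 0.31 ± 0.49 (adjusted p = 0.684) turned to -0.31 without that library, which is also the null library with the largest acinar share.

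Of the folate enzymes, *Aldh1l1* had normalised counts of 148, 273 and 102 in week 8 null libraries, against 698, 911 and 985 in wild-type libraries. The groups did not overlap and the log2 fold change was -2.41 ± 0.30 (adjusted p = 0.000744). *Aldh1l2*, its mitochondrial counterpart, had 958, 754 and 713 in null libraries, against 1521, 1583 and 2177 in wild-type libraries. In normalised counts it also separated the genotypes, by a smaller step of -1.11 ± 0.17 on the log2 scale (adjusted p = 0.00143). That call was lost when all 12 libraries were fitted together (adjusted p = 0.0586), the only one of 18 alternatives under which it was. Per assigned read the groups overlapped, with 4.68 to 7.11 RPKM in null libraries and 6.35 to 7.71 in wild-type libraries.

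*Aldh2*, the most abundant of the 8 genes per length, had normalised counts of 814, 1322 and 1004 in week 8 null libraries, against 2180, 2506 and 2856 in wild-type libraries. All 3 null libraries lay below all 3 wild-type libraries, with a log2 fold change of -1.28 ± 0.18 (adjusted p = 0.00102). Per assigned read the step was smaller, with 9.64 to 13.1 RPKM in null and 14.5 to 16.4 in wild-type libraries. At this age 1 read was worth 0.671 to 0.951 normalised counts in null libraries and 1.11 to 1.47 in wild-type libraries. In normalised counts the library ranges of these 5 relatives and of *Aldh1b1* did not overlap, each with null lower. Of all genes 43.6% did not overlap, and 22.1% did so with null lower. All 29 acinar genes were called lower in the same null libraries (median log2 fold change -2.45), as were 13 of 13 mesenchymal genes (median -1.94) and 9 of 12 duct genes, while 9 of 11 beta cell genes were called higher. The part of these shifts in the values of the *Aldh* genes was not tested.

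At P1, the comparison of null with wild-type islets gave a different picture. *Aldh1b1* was the only one of the 8 genes called, where 0.0658% of 18235 genes were called. After adjustment 12 genes passed in all. At an unadjusted p under 0.05 the test gave 4 of the 7 relatives of *Aldh1b1*, where it gave 15.0% of all genes. *Aldh1a1*, *Aldh1a2*, *Aldh1a7* and *Aldh1l2* had higher values in all 3 null libraries than in any wild-type library, an arrangement that 12.7% of all genes showed. DESeq2 on the recovered reads called these 4 as well as *Aldh1b1*, where it called 3.39% of all genes, while edgeR called *Aldh1b1* (0.0987% of all genes) and limma-voom 0 of the 8 (0.0384%). The median log2 fold change of the 7 relatives was 1.31, against 0.03 over all genes.

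The largest of these differences was that of *Aldh1a7*, which had normalised counts of 543, 414 and 179 in P1 null libraries, against 47.4, 46.2 and 101 in wild-type libraries. Null library 3 was the lowest null library and wild-type library 3 the highest wild-type library, and the log2 fold change was 2.48 ± 0.44 (adjusted p = 0.0806). *Aldh1l2* had 538, 397 and 130 in null libraries, against 46.0, 81.2 and 95.6 in wild-type libraries. Null library 3 was again the lowest of its group, close to the wild-type range, and the log2 fold change was 2.08 ± 0.49 (adjusted p = 0.137). *Aldh1a2* had 88.2, 110 and 36.3 in null libraries, against 19.7, 22.4 and 15.4 in wild-type libraries, a log2 fold change of 1.85 ± 0.42 (adjusted p = 0.125). *Aldh1a1* had 420, 428 and 240 in null libraries, against 106, 116 and 228 in wild-type libraries. Null library 3 and wild-type library 3 nearly met, and the log2 fold change was 1.31 ± 0.33 (adjusted p = 0.153).

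The other 3 genes had overlapping libraries at P1. *Aldh2* had normalised counts of 1144, 1260 and 1338 in null libraries, against 1070, 1033 and 1279 in wild-type libraries (log2 fold change 0.15 ± 0.15, adjusted p = 0.657). *Aldh1l1* had 107, 117 and 153 in null libraries, against 104, 91.0 and 228.6 in wild-type libraries (-0.06 ± 0.35, adjusted p = 0.948). *Aldh1a3* had 57.4, 53.8 and 41.9 in null libraries, against 55.5, 50.4 and 27.9 in wild-type libraries (0.24 ± 0.33, adjusted p = 0.75). For none of these 3 did a setting that was tried pass the threshold, which does not show that their levels were equal.

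The P1 counts rested on single libraries, over all genes as well as for these 8. Null library 3 had the smallest acinar share of its group (11.2%), and without it 4 of the 8 genes were called (*Aldh1b1*, *Aldh1a2*, *Aldh1a7* and *Aldh1l2*), while the count over all genes was 194, against 12 with every library. Without wild-type library 1 or wild-type library 3, 2 were called (*Aldh1b1* and *Aldh1a7*), with 245 and 79 genes in all. Without null library 1, null library 2 or wild-type library 2 not a single gene of the table was called. All 29 acinar genes had positive log2 fold changes in the P1 comparison (median 2.66), 2 of them called, and 10 of 11 beta cell genes had negative ones (median -0.89). Of 13 mesenchymal genes 11 had positive ones (median 0.36, 0 called). Their part in the *Aldh* values was not tested.

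**Figure D2:**
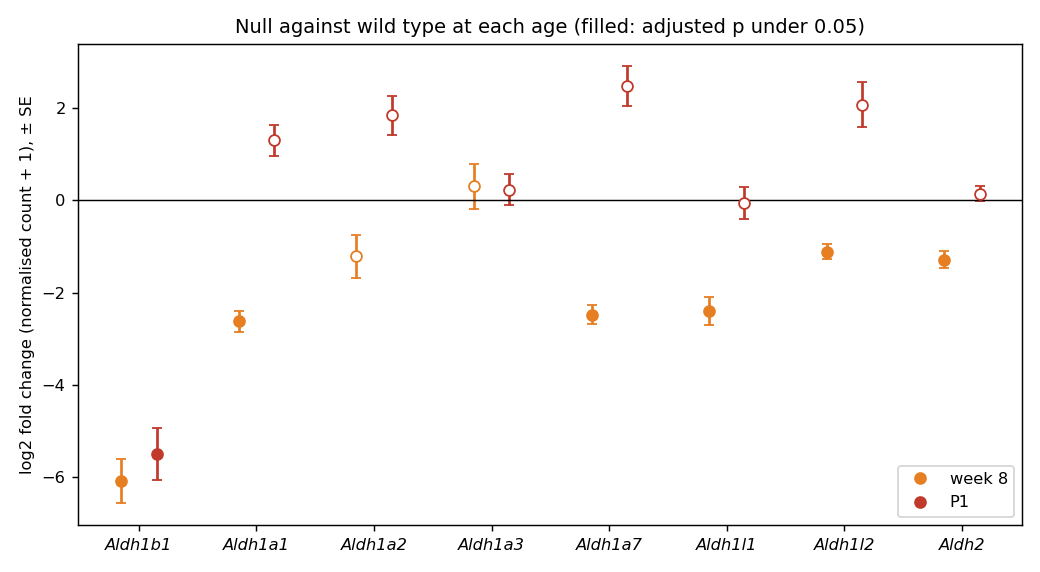
Log2 fold change of null against wild type on the log2(normalised count + 1) scale (y axis) for each of the 8 genes at week 8 and at P1, with its standard error; filled points have an adjusted p under 0.05 from limma. At week 8 the filled points run from -1.11 (*Aldh1l2*) to -6.09 (*Aldh1b1*), whereas at P1 only *Aldh1b1* is filled and *Aldh1a1*, *Aldh1a2*, *Aldh1a7* and *Aldh1l2* lie between 1.31 and 2.48.

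The difference between the ages was tested itself, as the interaction of genotype and age over the 12 libraries. For 6 of the 8 genes the genotype difference at week 8 was lower than that at P1, where 21.8% of all genes were called and 13.6% in this direction. The change was -4.96 ± 0.53 on the log2 scale for *Aldh1a7* (adjusted p = 9.04e-05), -3.93 ± 0.44 for *Aldh1a1* (adjusted p = 0.00012) and -3.19 ± 0.57 for *Aldh1l2* (adjusted p = 0.0016). It was -3.05 ± 0.66 for *Aldh1a2* (adjusted p = 0.00509), -2.35 ± 0.51 for *Aldh1l1* (adjusted p = 0.00509) and -1.43 ± 0.25 for *Aldh2* (adjusted p = 0.00126). *Aldh1b1* (-0.59 ± 0.74, adjusted p = 0.621) and *Aldh1a3* (0.07 ± 0.63, adjusted p = 0.954) were not called. These 6 calls held under every one of 23 alternatives, each single library left out in turn included. Over the same contrast all 29 acinar genes were called lower, with a median of -5.02. So were 12 of 13 mesenchymal genes (median -2.87) and 9 of 12 duct genes, with 1 duct gene higher. Of 11 beta cell genes 9 were called higher (median 1.79). The part of these shifts was not tested.

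The changes with age within each genotype make up this interaction, and they share the libraries used above. In wild-type islets 5 of the 8 genes were higher in normalised counts at week 8 than at P1, where 32.6% of all genes were called and 15.9% as higher. *Aldh1l2* averaged 1760 ± 361.8 at week 8 and 74.2 ± 25.5 at P1 (SD, n = 3 each), a log2 fold change of 4.59 ± 0.40 (adjusted p = 1.98e-06). *Aldh1a7* had a log2 fold change of 3.40 ± 0.38 (adjusted p = 1.24e-05), *Aldh1l1* of 2.72 ± 0.36 (5.87e-05), *Aldh1a1* of 1.99 ± 0.31 (0.000264) and *Aldh2* of 1.15 ± 0.17 (0.000172, all adjusted). Per assigned read the direction of *Aldh2* was reversed, with 14.5 to 16.4 RPKM at week 8 and 17.1 to 20.2 at P1. *Aldh1a1* then overlapped, with 7.17 to 9.35 RPKM at week 8 and 3.88 to 8.23 at P1. In these libraries 1 read was worth 1.11 to 1.47 normalised counts at week 8 and 0.700 to 0.735 at P1. In normalised counts *Aldh1b1*, *Aldh1a2* and *Aldh1a3* overlapped between the ages. Per assigned read *Aldh1a2* still overlapped, whereas *Aldh1b1* was lower at week 8, with 0.803 to 1.37 RPKM against 2.08 to 2.87 at P1. *Aldh1a3* was also lower per assigned read in every week 8 wild-type library than in any P1 wild-type library, with means of 0.198 and 0.742 RPKM. Over the same contrast 27 of 29 acinar genes were called higher and 1 lower (median log2 fold change 5.54). Their part in the *Aldh* values was not tested.

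In null islets 1 gene was called higher and 3 lower at week 8. These 4 of the 8 genes are a share near the 46.7% of all genes that were called. *Aldh1l2* averaged 808 ± 131 at week 8 and 355 ± 207 at P1, a log2 fold change of 1.40 ± 0.40 (adjusted p = 0.0108). *Aldh1a1* averaged 92.6 ± 26.7 at week 8 and 362.6 ± 106 at P1 (-1.95 ± 0.31, adjusted p = 0.000164). *Aldh1a2* averaged 15.6 ± 3.4 at week 8 and 78.2 ± 37.8 at P1 (-2.13 ± 0.47, adjusted p = 0.00179), and *Aldh1a7* averaged 118 ± 31 at week 8 and 379 ± 185 at P1 (-1.56 ± 0.38, adjusted p = 0.0034). *Aldh2* averaged 1047 ± 256 at week 8 and 1248 ± 98 at P1, and was not called (-0.28 ± 0.17, adjusted p = 0.206), but it was called with scaling to the reads outside the acinar list (-0.63, adjusted p = 0.00611) and without null library MUT219 (-0.46, adjusted p = 0.0417). *Aldh1a3* was called only without that library (-1.02, adjusted p = 0.0343). Over the same contrast 13 of 13 mesenchymal genes (median log2 fold change -3.99) and 11 of 12 duct genes were called lower. All 11 beta cell genes were called higher (median 2.91), and of 29 acinar genes 7 were called higher and 6 lower. The part of these shifts in the *Aldh* values was not tested.

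To compare the genes with one another, levels were taken per length as RPKM. *Aldh2* was first in each group, with 11.4 ± 1.7 RPKM in week 8 null islets, 15.7 ± 1.0 in week 8 wild-type islets, 17.0 ± 2.9 in P1 null islets and 18.3 ± 1.6 in P1 wild-type islets (SD, n = 3 each). In 3 of the 4 groups no library of another member reached its range, and in P1 null islets *Aldh1a7* did. *Aldh2* made up 45.5 ± 4.5% of the summed RPKM of the 8 genes in week 8 null islets and 33.2 ± 1.2% in week 8 wild-type islets. At P1 it made up 37.2 ± 11.6% in null islets and 56.0 ± 5.5% in wild-type islets.

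Below *Aldh2* the order differed between groups. In week 8 null islets *Aldh1l2* came next with 5.64 ± 1.30 RPKM, above and apart from *Aldh1a7* (2.92 ± 0.48), *Aldh1a1* (2.30 ± 0.43) and *Aldh1l1* (1.95 ± 0.81), neighbours in that order whose libraries overlapped. In week 8 wild-type islets *Aldh1a7* (9.23 ± 0.70), *Aldh1a1* (8.12 ± 1.12) and *Aldh1l2* (6.85 ± 0.75) followed, each overlapping the next, and *Aldh1l1* (5.62 ± 0.69) lay below them. In P1 null islets *Aldh1a7* (11.3 ± 4.7) and *Aldh1a1* (11.1 ± 2.5) overlapped and lay apart from *Aldh1l2* (2.90 ± 1.52), *Aldh1a2* (2.14 ± 0.95) and *Aldh1l1* (1.79 ± 0.53). In P1 wild-type islets *Aldh1a1* (5.55 ± 2.35) lay apart from *Aldh1a7* (2.38 ± 1.07), *Aldh1l1* (2.37 ± 1.21) and *Aldh1b1* (2.35 ± 0.45), which overlapped. *Aldh1a3* stayed below 1 RPKM in every library.

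**Figure D3:**
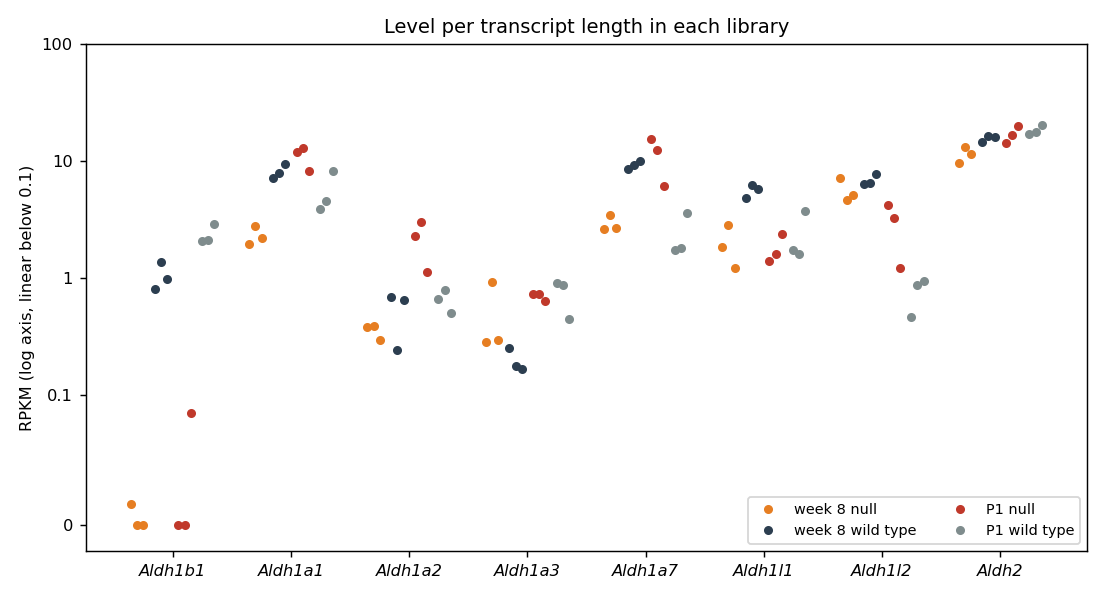
Level per transcript length (RPKM, y axis, log scale that is linear below 0.1) of the 8 genes in each library, coloured by group. *Aldh2* lies between 9.64 and 20.2 RPKM throughout, *Aldh1a3* below 1 RPKM in every library, and *Aldh1b1* at 0 to 0.0858 RPKM in null libraries.

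*Aldh1a1* and *Aldh1a7* are near copies of one another, so their sequences bear on how far their counts are separate. Both lie on chromosome 19. In the GENCODE transcripts whose lengths equal those of the deposited table (2053 and 2066 bases), the coding sequences are 1506 bases each and differ at 126 positions, an identity of 91.6%. Of the 1432 windows of 75 bases, the read length, that the coding sequence holds, 50 (3.49%) had no difference and 105 had 1, with a median of 5.5. The longest identical run was 100 bases. Over the whole transcripts 2.53% of the windows of *Aldh1a1* were also found in *Aldh1a7*, and no window of the transcripts searched for the other 6 genes was found in another gene. For *Aldh1a3*, *Aldh1l1*, *Aldh1l2* and *Aldh2* the transcript searched was shorter than the deposited length, so part of what was counted was not searched. The windows that differ most, at bases 317 to 391 of the coding sequence counted from the start codon, are shown because reads there tell the genes apart; capitals mark the 17 differing bases.
Aldh1a1: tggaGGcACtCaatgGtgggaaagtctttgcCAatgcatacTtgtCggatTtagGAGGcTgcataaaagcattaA
Aldh1a7: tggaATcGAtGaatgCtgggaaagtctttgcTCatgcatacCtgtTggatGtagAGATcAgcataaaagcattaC
How the authors' counting treated reads that fit both genes is not given in the sources used here, so a small part of either count may belong to the other gene.

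The promoters of the pair are shown because the values of both genes were lower in null islets at week 8 and higher in them at P1. At P1 neither gene passed the limma test, and *Aldh1l2* had the same directions at both ages. The ratio of the pair also differed between groups. The promoters are alike close to the start of transcription, and their part in the values was not tested. RefSeq promoters, 250 bases before and 50 after a start in GRCm38.p6, were matched for 5 of the 8 genes. Over the last 150 bases of the window, *Aldh1a1* (chr19:20601718-20602017, + strand) and *Aldh1a7* (chr19:20727507-20727806, - strand) had 142 identical bases (94.7%). Capitals mark the longest identical block, 65 bases at positions 157 to 221 of both windows.
Aldh1a1: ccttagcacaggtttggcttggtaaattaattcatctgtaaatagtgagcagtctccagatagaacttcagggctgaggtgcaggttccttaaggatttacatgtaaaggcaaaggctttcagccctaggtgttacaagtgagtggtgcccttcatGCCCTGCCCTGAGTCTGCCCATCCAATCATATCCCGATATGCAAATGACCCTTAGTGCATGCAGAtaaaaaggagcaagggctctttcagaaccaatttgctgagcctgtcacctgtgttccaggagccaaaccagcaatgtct
Aldh1a7: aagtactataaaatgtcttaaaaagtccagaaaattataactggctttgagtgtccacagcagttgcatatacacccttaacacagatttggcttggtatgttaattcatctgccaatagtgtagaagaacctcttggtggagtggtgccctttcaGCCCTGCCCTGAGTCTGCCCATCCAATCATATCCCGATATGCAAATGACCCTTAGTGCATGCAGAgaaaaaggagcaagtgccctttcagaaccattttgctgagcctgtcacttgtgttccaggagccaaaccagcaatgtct
The block holds the letters CCAAT, which 37.4% of 32851 RefSeq mouse promoters of this length hold on either strand, and ATGCAAAT, which 1.74% hold. Among the other members with a promoter in the table, *Aldh1a2* also held both, *Aldh1b1* and *Aldh1l1* held CCAAT on the reverse strand without ATGCAAAT, and the upstream start of *Aldh1a1* held neither. The retinoic acid receptor half-site letters AGGTCA, held by 16.3% of promoters, were found on the reverse strand in *Aldh1l1* and in none of the other 5 windows. A match of letters is a description and no evidence of binding.

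Within a library, the ratio of *Aldh1a7* to *Aldh1a1* normalised counts does not depend on how the library was scaled. It was 1.35, 1.26 and 1.23 in week 8 null libraries, against 1.20, 1.19 and 1.07 in week 8 wild-type libraries. At P1 it was 1.29, 0.969 and 0.744 in null libraries, against 0.448, 0.398 and 0.442 in wild-type libraries. The ratio was thus higher in null than in wild-type islets at both ages with no overlap, by 0.128 at week 8 and by 0.573 at P1. It was 1.15 ± 0.07 at week 8 and 0.429 ± 0.028 at P1 in wild-type islets (SD, n = 3 each). In an exact two-sided permutation test each of these 3 differences had p = 0.1, the smallest that 3 against 3 allows (adjusted p = 0.171 over 12 such comparisons).

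The ratio of *Aldh1l2* to *Aldh1l1* normalised counts, mitochondrial to cytosolic enzyme, was 6.49, 2.76 and 6.99 in week 8 null libraries, against 2.18, 1.74 and 2.21 in week 8 wild-type libraries. Null library MUT219 lay closest to the wild type, and the groups did not overlap (exact two-sided permutation p = 0.1, the smallest possible). At P1 the ratio was 5.03, 3.40 and 0.854 in null libraries, against 0.444, 0.892 and 0.418 in wild-type libraries. There the groups overlapped through null library 3 (exact two-sided permutation p = 0.2).

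The values of the members are set here beside the acinar share of reads, whose part in them was not tested. Week 8 null libraries and P1 null libraries had acinar shares that overlapped, 12.6% to 23.8% and 11.2% to 25.9%. Over these, *Aldh1a1* had normalised counts of 71.8 to 123 in week 8 null libraries and 240.3 to 428 in P1 null libraries. *Aldh1l2* had 713 to 958 in week 8 null libraries and 130 to 538 in P1 null libraries. *Aldh1a2* and *Aldh1a7* were lower in the week 8 null libraries, also without overlap. By contrast *Aldh1b1*, *Aldh1a3*, *Aldh1l1* and *Aldh2* overlapped between these groups. For *Aldh2* the ranges were 814 to 1322 in week 8 null libraries and 1144 to 1338 in P1 null libraries. *Aldh2* had 2180 to 2856 in week 8 wild-type libraries, where the acinar share was 48.7% or more, and 1033 to 1338 over the 6 P1 libraries, where it ran from 2.18% to 25.9%. Within the P1 null group the library with the lowest acinar share (11.2%) had the lowest values of *Aldh1a1*, *Aldh1a2*, *Aldh1a3*, *Aldh1a7* and *Aldh1l2* but the highest of *Aldh1l1* and *Aldh2*. Within the week 8 null group the library with the highest acinar share (MUT219, 23.8%) had the highest values of every member except *Aldh1b1* and *Aldh1l2*. Genotype and acinar share cannot be told apart between the groups at one age.

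**Figure D4:**
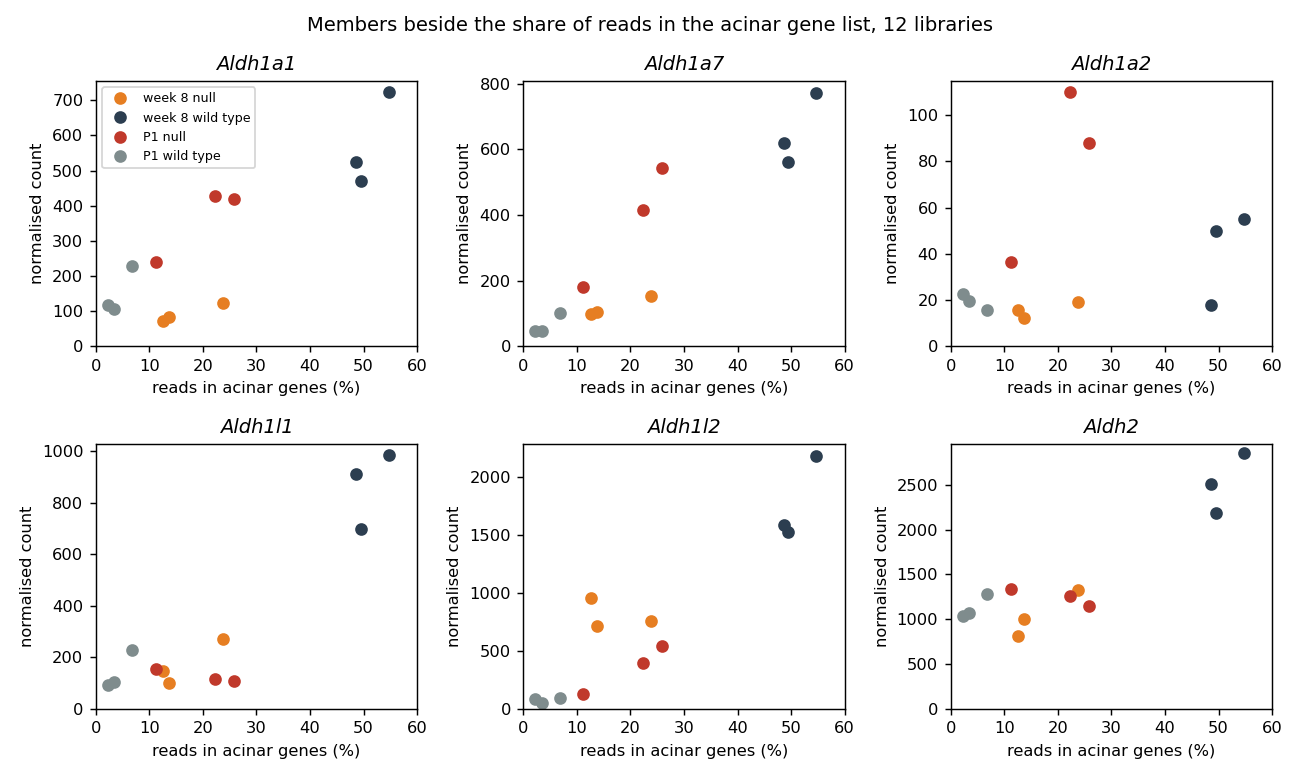
Normalised count (y axis) of 6 members against the share of the library's reads in 29 acinar genes (x axis, %), 1 point per library and coloured by group. *Aldh1a1* and *Aldh1a7* are highest in the week 8 wild-type libraries (acinar share 48.7% to 54.7%), and at shares of 11.2% to 25.9% the P1 null libraries lie above the week 8 null libraries for both genes.

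For the 5 members with a mean of at least 100 normalised counts, the genes of most similar pattern were sought among 11483 genes, as Pearson's r of log2(normalised count + 1) over the 12 libraries. The libraries share 4 groups and their acinar shares, so these r describe the libraries and carry no test. *Aldh1a1* was closest to *Igf1* (r = 0.989), a growth factor, *Homer2* (0.986) and *Ntn1* (0.982). *Aldh1a7* was closest to *Rbpjl* (0.985), a transcription factor of acinar cells, *Gls2* (0.985), a glutaminase, and *Gata4* (0.984). *Aldh1l1* was closest to *Ccrl2* (0.975), *Pbld1* (0.968) and *Gnmt* (0.966), the glycine methyltransferase. *Aldh1l2* was closest to *Clpb* (0.976), a mitochondrial chaperone, *Gpr89* (0.971) and *Serpini1* (0.971). *Aldh2* was closest to *Cyp39a1* (0.968), an oxysterol hydroxylase, *Aldh6a1* (0.961) and *Sardh* (0.960), the mitochondrial sarcosine dehydrogenase. Between members, r was 0.897 for *Aldh1a1* with *Aldh1a7*, 0.928 for *Aldh1l1* with *Aldh2* and 0.431 for *Aldh1a1* with *Aldh1l2*.

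Lists of related genes were read in the same fits. Of 9 other aldehyde dehydrogenases, 4 were called lower and 1 higher in null islets at week 8, where 28.1% of all genes were called (median log2 fold change -0.17). *Aldh7a1*, of lysine breakdown, averaged 947 ± 240 in null islets and 2905 ± 340 in wild-type islets (-1.64 ± 0.17, adjusted p = 0.000423). *Aldh6a1*, of valine breakdown, averaged 654 in null islets and 1494 in wild-type islets (-1.22 ± 0.19, adjusted p = 0.00167), and *Aldh16a1* also fell (-0.69 ± 0.17, adjusted p = 0.0128). *Aldh5a1*, the succinate semialdehyde dehydrogenase of GABA breakdown, averaged 701 in null islets and 411 in wild-type islets (0.77 ± 0.13, adjusted p = 0.00238). At P1 limma called 0 of the 9 (1 at an unadjusted p under 0.05, where 15.0% of all genes had one). DESeq2 called 1.

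Of 21 measured retinoid genes, 5 were called lower and 1 higher at week 8 (median -0.03), a share of the list near the 28.1% of all genes that were called. *Dhrs3*, which reduces retinaldehyde back to retinol, averaged 151 in null islets and 651 in wild-type islets (-2.10 ± 0.28, adjusted p = 0.000923). *Rdh5*, a retinol dehydrogenase (-1.06 ± 0.15, adjusted p = 0.0012), *Rara*, a retinoic acid receptor (-0.52 ± 0.14, adjusted p = 0.02), and *Rxrb*, a retinoid X receptor (-0.41 ± 0.11, adjusted p = 0.0235), were lower by smaller steps. The count of 6 was 2 without null library MUT219 or wild-type library 3, and 3 without null library MUT218 or MUT229, while the count over all genes, 5094 with every library, ran from 2676 without wild-type library 3 to 6267 without wild-type library 2. At P1 limma called 0 of the 21 (3 at an unadjusted p under 0.05), DESeq2 1, and the smallest adjusted p was that of *Rbp4*, the carrier of retinol in blood (-0.91 ± 0.20, adjusted p = 0.117). *Rbp4* was also on a list of 4 delta cell genes, all of which had negative log2 fold changes at P1 (median -0.87, 0 called).

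Of 23 measured folate genes, 5 were called lower and 2 higher at week 8 (median -0.13), again near the 28.1% of all genes. *Ggh*, which trims polyglutamate from folates, averaged 1084 in null islets and 4827 in wild-type islets (-2.24 ± 0.27, adjusted p = 0.000646). *Fpgs*, which adds it (-0.80 ± 0.12, adjusted p = 0.00119), *Gcsh* of the glycine cleavage system (-0.81 ± 0.14, adjusted p = 0.00326) and *Slc19a1*, the reduced folate carrier (-0.76 ± 0.18, adjusted p = 0.0111), were also lower. The count of 7 was 3 without wild-type library 3, 4 without null library MUT218 or MUT229, and 11 without wild-type library 2. At P1 limma called 0 of the 23 (4 at an unadjusted p under 0.05) and DESeq2 1.

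Of 9 measured genes of alcohol and aldehyde oxidation, 2 were called lower and 3 higher at week 8 (median -0.26), where 28.1% of all genes were called. *Cat*, the catalase, averaged 244 in null islets and 858 in wild-type islets (-1.83 ± 0.22, adjusted p = 0.000662), and *Akr1b8*, an aldo-keto reductase, averaged 48.8 in null islets and 217 in wild-type islets (-1.97 ± 0.41, adjusted p = 0.00672). *Aox1*, aldehyde oxidase, averaged 302 in null islets and 132 in wild-type islets (1.17 ± 0.20, adjusted p = 0.0028), and the alcohol dehydrogenase *Adh7* averaged 10.45 in null islets and 1.48 in wild-type islets (2.60 ± 0.79, adjusted p = 0.0336). The count of 5 was 3 without null library MUT218 or MUT219 or without wild-type library 1 or 3. At P1 limma called 0 of the 9 (1 at an unadjusted p under 0.05).

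**Figure D5:**
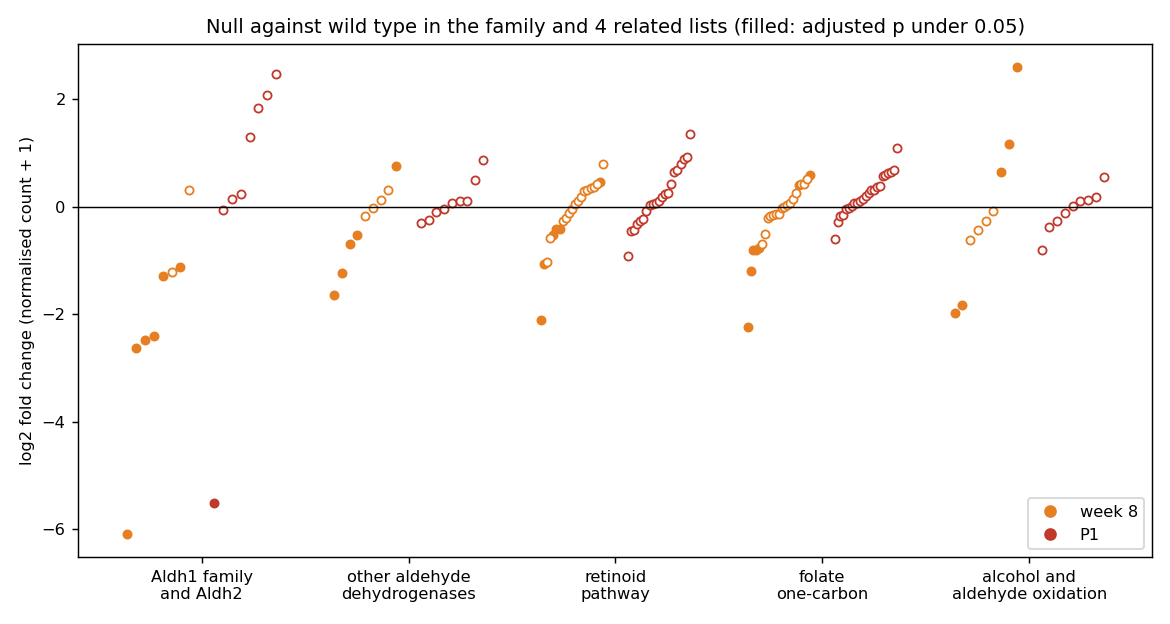
Log2 fold change of null against wild type (y axis, log2(normalised count + 1) scale) of each gene of the family and of 4 related lists, ordered by value within a list, at week 8 and at P1; filled points have an adjusted p under 0.05 from limma. In the family 6 of 8 points are filled and negative at week 8, and in the 4 lists filled points lie on both sides of 0 at week 8 and none is filled at P1.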

How the data were processed

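Islet RNA was sequenced as poly(A)-selected, strand-specific libraries with single reads of 75 bases. The deposited table holds, per gene, a signal per library: the normalised count, which the authors made with DESeq 1.10.1 after counting with bedtools 2.11 on mm9 with Ensembl 67 genes, per the submitters' processing notes. The table also holds the authors' own fold changes and p-values, which were not used. All of a library's values were whole multiples of 1 step (tolerance 0.001), which gave back the reads. Main tests used limma 3.58.1 in R 4.3.3 on log2(normalised count + 1), genes with a mean of at least 1, Benjamini-Hochberg adjustment over all genes and a threshold of 0.05. Each age was fitted alone, while interaction and age contrasts used all 12 libraries. edgeR 4.0.16, DESeq2 1.42.0 and limma-voom on recovered reads, other scalings, filters and pseudocounts, and each library left out were alternatives. RPKM used the transcript length that the authors deposited (in bases) and the recovered reads. The test was also run on simulated data in which all groups shared each gene's mean, apart from genes changed at random. Those data held no joint shift of acinar genes, so that run does not bear on such shifts.

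All 8 members were named, with at most 4 genes of each related list by smallest adjusted p and, for members with a mean of at least 100, the 3 genes of highest r. Members and lists were chosen with earlier results of these data known. Nothing says that the 3 libraries of a P1 group came from separate litters, so p-values there measure the spread between pools. *Aldh1a2* and *Aldh1a3* had 16 to 133 reads per library, and intervals cover counting error only.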

Additional observations from a re-analysis of the deposited data

Results flagged for a closer look

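For 6 genes the difference between null and wild-type islets itself differed between the ages, by the interaction test over 12 libraries in limma (adjusted p from 9.04e-05 to 0.00509). The genotype difference at week 8 minus that at P1 was -3.93 on the log2 scale for *Aldh1a1*, -3.05 for *Aldh1a2*, -4.96 for *Aldh1a7*, -2.35 for *Aldh1l1*, -3.19 for *Aldh1l2* and -1.43 for *Aldh2*. In normalised counts, *Aldh1a1*, *Aldh1a7* and *Aldh1l2* had null libraries wholly below the wild type at week 8 and wholly above it at P1. Acinar genes moved in the same directions over the same contrasts. In the interaction 12 of 13 mesenchymal and 9 of 12 duct genes were also called lower, and 9 of 11 beta cell genes higher. The part of these shifts was not tested.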

How the results depend on the processing

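Of 848 recomputed values, 809 kept their direction and side of the threshold, 19 gained a call, 6 lost one and 14 changed sign. At week 8, in the interaction and over age, the counts of called members (6, 6, 5 and 4) stayed within 1.5 times. The P1 count of 1 became 0 with a pseudocount of 0.1, 0 with limma-voom, 5 with DESeq2, 2 at an adjusted p of at most 0.1, 3 with all 12 libraries in 1 fit, and 0 to 4 with 1 library left out. Sign changes were of values that had not passed. With 1 library left out, *Aldh1a3* ran from -0.062 (without wild-type library 3) to 0.42 at P1, from -0.31 (without null library MUT219) to 0.64 at week 8 and from -0.55 (without MUT219) to 0.41 in the interaction, where it was also negative without P1 null library 3 (-0.063), P1 wild-type library 1 (-0.11) or 2 (-0.046) or week 8 wild-type library 2 (-0.024) and with limma-voom (-0.013). *Aldh1l1* ran from -0.31 to 0.35 at P1, positive without null library 1 (0.046) or wild-type library 3 (0.35), and from -0.014 (without MUT219) to 0.69 over age in null islets. *Aldh1b1* ran from -0.91 to 0.056 in the interaction and from -0.71 to 0.25 over age in null islets, the highest of each without P1 null library 3. Over age in wild-type islets it was -0.21 with scaling to reads outside the acinar list, a scaling that moved the median of all genes to -0.41 there and to -0.37 over age in null islets. The cause of these changes was not tested. With the replicate number as a block at P1, 1 member was called, *Aldh1b1* (adjusted p = 0.0253), and 15 genes in all, against 12 without it. Same-numbered libraries did not deviate together (r = 0.002, -0.017 and -0.024). Deviations from means of 3 libraries cannot exclude that same-numbered libraries shared a litter or a preparation. Week 8 genotypes share no numbers, so no paired fit was made there.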
